A study of Mus musculus with 37 samples.

Results

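The 9 granzyme genes Gzma, Gzmb, Gzmc, Gzmd, Gzme, Gzmf, Gzmg, Gzmk and Gzmm were followed across populations of mouse uterine natural killer (uNK) cells, which are 9 of the 53700 genes counted in each library. They were taken by name and not by a cut on their values, though earlier results of these data were known. The cells were isolated by flow cytometry as live, CD45+ and NKp46+, from uteri of mice at day 9.5 to 10.5 of gestation, and bulk RNA was sequenced from them in 37 libraries. In C57BL6 mice of WT genotype there were 9 libraries of uneducated cells (negative for both Ly49C/I and NKG2A), 9 of NKG2A+ cells (Ly49C/I-) and 6 of Ly49C/I+ cells (NKG2A-). In mice whose genotype label reads NKG2A KO C57BL6 there were 8 libraries of uneducated cells and 5 of Ly49C/I+ cells, and cells with both receptors were not collected. All groups were NKp46+ and came from pregnant mice, and no virgin uterus or other organ was part of the series. Both receptors bind MHC class I and inhibit the cell, and an NK cell that carries one for self MHC is called educated. The labels do not say which libraries came from separate mice, so p-values measure the spread between these libraries, which may in part be technical.

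Granzymes are serine proteases that NK cells and cytotoxic T cells store in secretory granules and release onto a target cell, where perforin lets them enter. Granzyme A cuts after basic residues, whereas granzyme B cuts after aspartate and activates caspases. In the mouse, Gzmc, Gzmd, Gzme, Gzmf and Gzmg lie beside Gzmb in a cluster on chromosome 14, and Gzmd to Gzmg have no human counterpart. Granules of uNK cells are rich in such proteases, while these cells are known for acting on the uterine arteries more than for killing.

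In the GENCODE M21 annotation of GRCm38, the cluster from Gzme to Gzmb spans 144.6 kb of chromosome 14 (56117626 to 56262260), and every granzyme gene in it is on the minus strand. Gzma (113093825 to 113100981) and Gzmk (113171608 to 113225908) lie on the minus strand of chromosome 13. Gzmm lies on the plus strand of chromosome 10 (79689020 to 79695261). Counted from the start of Gzmb, Gzmc starts after 27.6 kb, Gzmf after 50.8 kb, Gzmg after 102.7 kb, Gzmd after 129.7 kb and Gzme after 141.6 kb. The cluster genes are close copies: the coding sequences of Gzmd and Gzme are 93.5% identical, those of Gzmf and Gzmg 87.3%, and those of Gzmb and Gzmc 76.8%, whereas Gzma is 57.3% identical to Gzmb. Of all stretches of 50 bases of the gene's exons, 21.9% of Gzmd, 20.6% of Gzme, 19.8% of Gzmg, 7.36% of Gzmf and 4.14% of Gzmc also occur in another gene, in each case one of the same cluster. For Gzma, Gzmb, Gzmk and Gzmm this share was 0%. The split of reads among Gzmd, Gzme and Gzmg is therefore less certain than the level of Gzmb or Gzma. Gzmf overlaps the antisense gene Gm4022, which held 57 reads over all libraries, and Gzmk overlaps Esm1 on the opposite strand, and no source used here says whether counting used the strand.

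Promoters are shown because those of Gzmc to Gzmg are alike, while that of Gzmb, which was also lower in cells with a receptor, is not. The lines below give the 200 bases before the start of transcription in RefSeq (GRCm38.p6), 5′ to 3′ on the strand of the gene. Capitals mark the motif TGTGGT on either strand (the core of Runx sites), the motif TGANTCA (AP-1) and the motif TGACGTCA (the cAMP response element), and no motif overlapped another. The last of these was added after the sequences had been seen.
Gzmd, chr14:56132594-56132793, minus strand: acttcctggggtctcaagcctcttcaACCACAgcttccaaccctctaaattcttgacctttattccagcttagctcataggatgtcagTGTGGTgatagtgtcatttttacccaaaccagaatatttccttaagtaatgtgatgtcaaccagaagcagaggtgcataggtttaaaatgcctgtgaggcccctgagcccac
Gzmg, chr14:56159580-56159779, minus strand: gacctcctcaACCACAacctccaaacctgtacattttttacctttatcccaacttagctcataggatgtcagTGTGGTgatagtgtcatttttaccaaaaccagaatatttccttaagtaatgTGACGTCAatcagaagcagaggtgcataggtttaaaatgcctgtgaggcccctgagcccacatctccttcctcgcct
Gzmf, chr14:56211408-56211607, minus strand: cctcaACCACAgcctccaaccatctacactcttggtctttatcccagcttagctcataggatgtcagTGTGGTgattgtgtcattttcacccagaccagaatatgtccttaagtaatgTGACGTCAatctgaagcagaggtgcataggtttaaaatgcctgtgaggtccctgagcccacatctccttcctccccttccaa
Gzmc, chr14:56234658-56234857, minus strand: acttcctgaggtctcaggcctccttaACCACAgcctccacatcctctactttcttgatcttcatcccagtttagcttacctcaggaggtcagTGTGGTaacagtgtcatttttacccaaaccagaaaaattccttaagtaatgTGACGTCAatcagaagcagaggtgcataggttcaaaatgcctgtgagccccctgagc
Gzmb, chr14:56262335-56262534, minus strand: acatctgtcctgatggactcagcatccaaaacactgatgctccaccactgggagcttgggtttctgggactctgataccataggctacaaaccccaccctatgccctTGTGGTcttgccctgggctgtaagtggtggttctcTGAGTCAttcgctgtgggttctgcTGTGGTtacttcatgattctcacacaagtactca
Gzma, chr13:113100982-113101181, minus strand: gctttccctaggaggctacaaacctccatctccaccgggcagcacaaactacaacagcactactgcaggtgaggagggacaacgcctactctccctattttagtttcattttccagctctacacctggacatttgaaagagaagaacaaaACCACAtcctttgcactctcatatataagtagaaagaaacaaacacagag

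All 9 genes had an entry. The window of Gzme was 94% identical to that of Gzmd and is not printed. Among the 5 genes from Gzmc to Gzmg, the windows were between 68.4% (Gzmf and Gzmc) and 94% identical, while that of Gzmb was 48.5% to 52.5% identical to them and that of Gzma 46.8% to 51.1%. Each of those 5 windows held TGTGGT once on either strand, a feature of 0.304% of the 32851 promoters of this length, as did the neighbour Mcpt8. The window of Gzmb held TGTGGT at 2 places on one strand, and 0.868% of promoters hold it at 2 or more places over both strands. That of Gzma held it at 1 place, and 11.2% of promoters hold it at all. TGACGTCA stood in the windows of Gzmc, Gzmf and Gzmg (1.47% of promoters), and TGANTCA stood only in that of Gzmb among the 9 genes (5.48%). TATAAA (9.96% of promoters) and TCACACCT (T-box factors, 0.907%) matched none of the 9, and TTCNNNGAA (STAT factors, 5.49%) matched 1 of the 2 windows of Gzmm. These are matches of letters, searched on both strands, and not sites shown to be bound. Windows follow RefSeq starts, which differ from those of GENCODE. That of Gzmb begins at 56262335, beyond the last base of the GENCODE gene (56262260). That of Gzmd begins at 56132594, inside the GENCODE gene (last base 56132608). The identities thus compare windows that lie differently against the GENCODE genes.

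Between 13287163 and 18875033 reads per library were counted on genes, and levels are given as CPM, a gene's reads divided by its library's size (TMM-scaled) and brought to a common depth, with scaling factors from 0.923 to 1.03. The labels fitted the markers with one exception. All 7 NK cell markers on a list (Ncr1, Klrb1c, Eomes, Tbx21, Itga1, Itga2 and Il2rb) reached 5 CPM in at least 0.5 of the libraries of every group. Klrc1, the gene of NKG2A, was at 494 to 760 CPM in NKG2A+ libraries and at 0.766 to 13.8 CPM in all others, among which both knockout groups were sorted as NKG2A-, so that its level does not check the knockout. Klra9, the gene of Ly49I, was at 464 to 1136 CPM in Ly49C/I+ libraries and at 49.997 to 123 CPM in the others. Klra3, the gene of Ly49C, went against the label: it had a mean of 55.3 CPM in WT Ly49C/I+ libraries and of 137 CPM in WT uneducated ones, in a gene family of close copies among which reads can be split.

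Granzyme transcripts together took 1.74% to 4.00% of the reads on genes in WT uneducated libraries (median 2.66%) and 1.22% to 1.68% in WT NKG2A+ libraries (median 1.47%). The median was 1.59% in WT Ly49C/I+ libraries, 2.23% in NKG2A KO uneducated libraries and 1.67% in NKG2A KO Ly49C/I+ libraries. With reads divided by the length of the gene, Gzmc was the highest granzyme in every library of 4 groups and in 6 of 9 WT NKG2A+ libraries, where Gzmb was highest in 2 and Gzma in 1. Gzma made up a median of 5.22% of the length-corrected granzyme reads in WT uneducated libraries (3.07% to 9.90%) and 22.9% in WT NKG2A+ libraries (18.0% to 38.4%). Gzmd to Gzmg went the other way, with the median of Gzmd at 12.1% in WT uneducated and 5.18% in WT NKG2A+ libraries. Gzmk and Gzmm stayed below 0.1% of granzyme reads in every library.

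**Figure D1:**
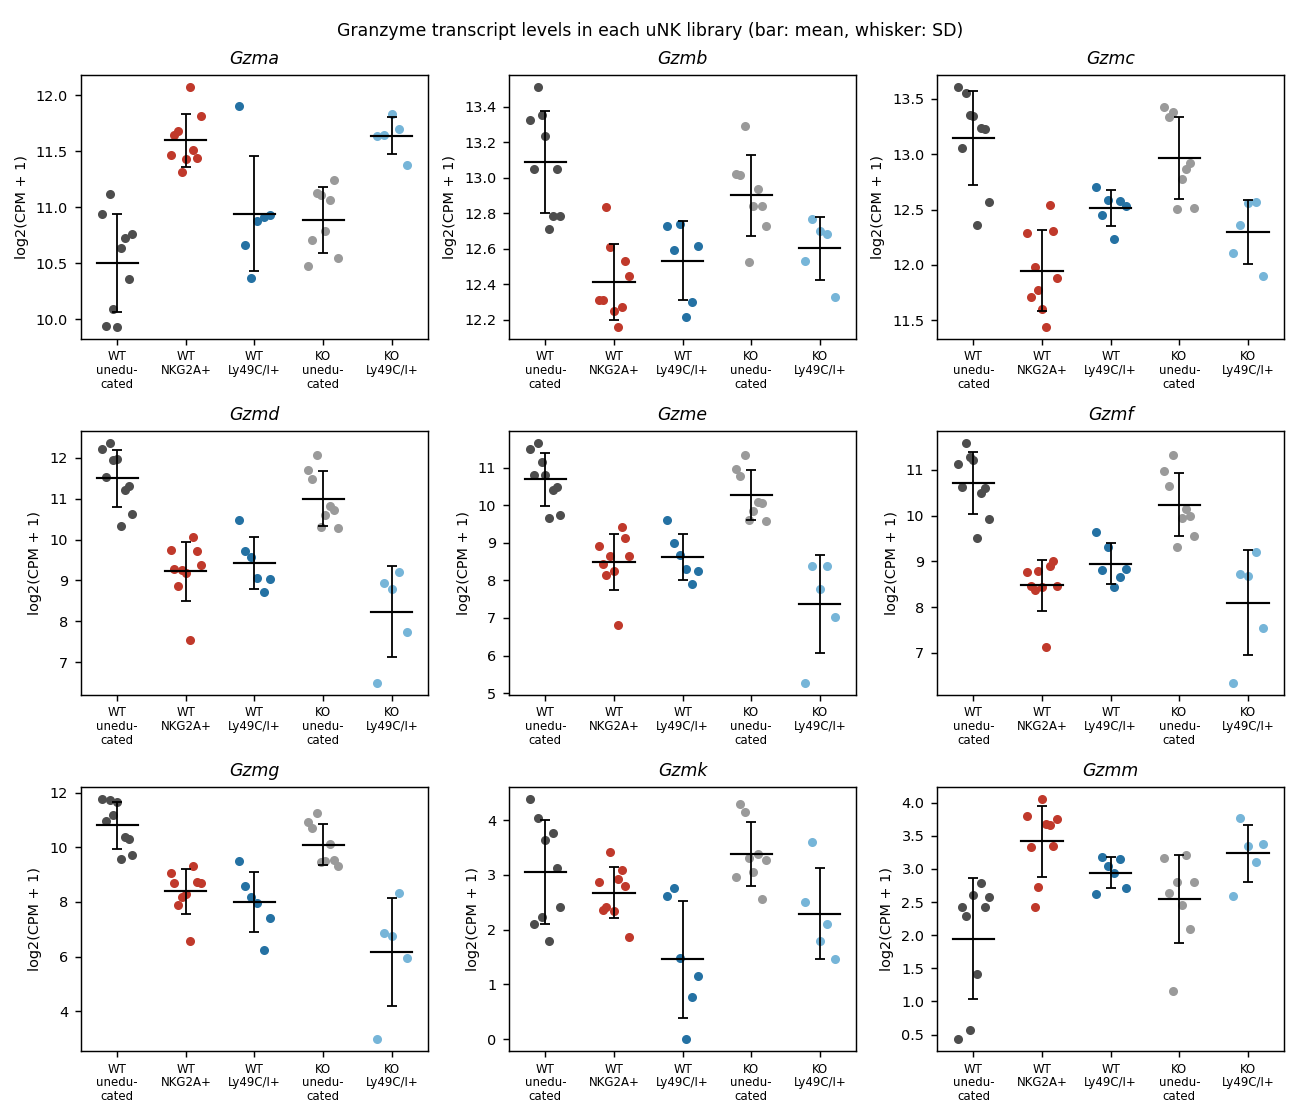
Level of each granzyme gene as log2(CPM + 1), one point per library, in the 5 uNK groups (black line, mean; whisker, SD; 9, 9, 6, 8 and 5 libraries; KO, NKG2A KO; the vertical axes differ between panels). Gzmd to Gzmg are high in both uneducated groups, with group means from 1244 to 3195 CPM, and low in all 3 groups with a receptor, from 122 to 750 CPM, while Gzma is highest in WT NKG2A+ and NKG2A KO Ly49C/I+ libraries.

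The comparisons of cell populations asked how uNK cells with a receptor for self MHC differ from those without, and from each other. In NKG2A+ against uneducated WT cells, 8 of the 9 granzyme genes passed an adjusted p of 0.05 in edgeR's quasi-likelihood test, 2 higher (Gzma and Gzmm) and 6 lower (Gzmb to Gzmg). Gzmm was tested mainly through NKG2A+ libraries, of which 8 of 9 reached 5 CPM against 2 of 9 uneducated ones. Among all 9339 genes tested, 7.47% were called higher and 7.56% lower. In Ly49C/I+ against uneducated WT cells, 7 granzyme genes were expressed enough to be tested and 6 (Gzmb to Gzmg) were lower, against 4.70% of 9292 genes called lower and 4.50% called higher. In NKG2A KO mice, all 9 were tested, and Ly49C/I+ cells had more Gzma and less of the 6 from Gzmb to Gzmg than uneducated cells, where 7.34% of 9299 genes were called higher and 8.99% lower. Between NKG2A+ and Ly49C/I+ WT cells 1 of 8 genes tested was called, Gzmc, against 1.42% of 9308 genes called lower in NKG2A+ cells and 1.31% higher. Both comparisons of WT cells with uneducated ones use the same 9 uneducated libraries, so they are not independent of each other.

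Gzma, the granzyme that cuts after basic residues, was the one abundant granzyme that was higher in cells with a receptor. It ranged from 977 to 2225 CPM in WT uneducated libraries (median 1592) and from 2540 to 4321 CPM in WT NKG2A+ libraries (median 2912). These ranges did not overlap, and the log2 fold change was 1.06 (SE 0.150, adjusted p = 5.04e-05). In WT Ly49C/I+ libraries it ranged from 1320 to 3820 CPM (median 1903), which overlapped both other WT groups. Its log2 fold change there against uneducated cells was 0.47 (SE 0.216, adjusted p = 0.183), and that of NKG2A+ against Ly49C/I+ cells was 0.59 (SE 0.175, adjusted p = 0.0765). One library, WT Ly49C/I+ 1, held the 3820 CPM, with the next at 1954 CPM. Without it the first of these values was 0.20 (adjusted p = 0.565) and the second 0.85 (adjusted p = 0.000751). With all libraries kept, the likelihood ratio test called the second (0.59, adjusted p = 0.0311). The call between NKG2A+ and Ly49C/I+ cells thus depends on that library and on the test used.

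The 5 Ly49C/I+ libraries of NKG2A KO mice held Gzma at 2662, 3187, 3209, 3330 and 3638 CPM, all above the 8 uneducated libraries, which ranged from 1419 to 2425 CPM (median 1955). The log2 fold change was 0.72 (SE 0.121, adjusted p = 0.00114). In the order of the 5 group means, NKG2A KO Ly49C/I+ (3205 ± 353 CPM, SD, n = 5) and WT NKG2A+ (3135 ± 549, n = 9) stood first, followed by WT Ly49C/I+ (2087 ± 882, n = 6), NKG2A KO uneducated (1921 ± 380, n = 8) and WT uneducated (1507 ± 446, n = 9). No neighbours in this order passed the test in a fit of all groups, in which the closest was WT NKG2A+ against WT Ly49C/I+ (adjusted p = 0.0627).

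Gzmb, the granzyme that activates caspases, stayed abundant in all groups and was moderately lower in cells with a receptor. It ranged from 6706 to 11695 CPM in WT uneducated libraries (median 8461), from 4579 to 7292 CPM in WT NKG2A+ libraries (median 5088) and from 4749 to 6823 CPM in WT Ly49C/I+ libraries (median 6233). The groups overlapped slightly, and the log2 fold change was -0.68 in NKG2A+ cells (SE 0.109, adjusted p = 0.000184) and -0.57 in Ly49C/I+ cells (SE 0.127, adjusted p = 0.0100). Uneducated libraries of NKG2A KO mice held 5886 to 10043 CPM (median 7597), and the 5 Ly49C/I+ libraries held 5134, 5926, 6563, 6654 and 6981 CPM. That log2 fold change, -0.33 (SE 0.105, adjusted p = 0.0426), lost its call with offsets for GC content and length (-0.16, adjusted p = 0.245) and in 10 of 13 fits that left out 1 library (adjusted p from 0.0112 to 0.0986 over the 13).

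Gzmc, the neighbour of Gzmb and the most abundant granzyme per length, ranged from 5263 to 12515 CPM in WT uneducated libraries (median 9673). In WT NKG2A+ libraries it ranged from 2784 to 5954 CPM (median 3783), and in WT Ly49C/I+ libraries from 4833 to 6660 CPM (median 6014). Its log2 fold change against uneducated cells was -1.20 in NKG2A+ cells (SE 0.162, adjusted p = 3.11e-05) and -0.68 in Ly49C/I+ cells (SE 0.156, adjusted p = 0.0124). The libraries overlapped in each case at the edge of the ranges. Gzmc was the one granzyme called between the WT populations with a receptor, with a log2 fold change of NKG2A+ over Ly49C/I+ cells of -0.53 (SE 0.136, adjusted p = 0.0421), a call lost in 11 of 15 fits without 1 library (adjusted p from 0.0121 to 0.0892) and with a filter at 1 CPM (adjusted p = 0.0656). Its range in NKG2A KO mice was 5830 to 11027 CPM in uneducated libraries, and the Ly49C/I+ libraries held 3817, 4400, 5266, 6029 and 6074 CPM (log2 fold change -0.71, SE 0.165, adjusted p = 0.00860).

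The 4 close copies Gzmd, Gzme, Gzmf and Gzmg showed the widest differences of the granzyme genes in each comparison with uneducated cells. Gzmd ranged from 1289 to 5301 CPM in WT uneducated libraries (median 2941), from 185 to 1067 CPM in WT NKG2A+ libraries (median 616) and from 422 to 1428 CPM in WT Ly49C/I+ libraries (median 645). All NKG2A+ libraries lay below all uneducated ones, and the log2 fold change was -2.28 (SE 0.283, adjusted p = 1.46e-05). In Ly49C/I+ cells the log2 fold change was -2.09 (SE 0.323, adjusted p = 0.00109), and only WT Ly49C/I+ 1 overlapped the uneducated libraries. That library held 1428 CPM, with the next at 839 CPM. It was also the highest of its group for Gzma, Gzmc, Gzme, Gzmf and Gzmg. Among NKG2A KO libraries Gzmd was at 1236 to 4333 CPM in uneducated libraries (median 1744), and the Ly49C/I+ libraries held 89.1, 214, 443, 493.1 and 586 CPM. These groups did not overlap, and the difference was -2.65 (SE 0.419, adjusted p = 0.000751).

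Gzme ranged from 808 to 3242 CPM in WT uneducated libraries (median 1773), from 111 to 691 CPM in WT NKG2A+ libraries (median 398) and from 239 to 778 CPM in WT Ly49C/I+ libraries (median 361), without overlap between uneducated libraries and either other group. The log2 fold changes were -2.19 (SE 0.291, adjusted p = 2.70e-05) and -2.10 (SE 0.322, adjusted p = 0.00109). It fell in NKG2A KO mice from 767 to 2603 CPM in uneducated libraries to 37.7, 130, 219, 330 and 333 CPM in Ly49C/I+ libraries, by 2.73 on the log2 scale as fitted (SE 0.446, adjusted p = 0.000970). Gzmf, which shares fewer stretches with its neighbours, ranged from 732 to 3088 CPM in WT uneducated libraries (median 1584), from 138 to 513 CPM in WT NKG2A+ libraries (median 353) and from 348 to 801 CPM in WT Ly49C/I+ libraries (median 452). It was lower in every NKG2A+ library than in any uneducated one (log2 fold change -2.27, SE 0.247, adjusted p = 2.79e-06). In Ly49C/I+ cells the change was -1.83 (SE 0.279, adjusted p = 0.00109), and WT Ly49C/I+ 1 alone overlapped the uneducated libraries. The 5 NKG2A KO Ly49C/I+ libraries held Gzmf at 80.4, 187, 407, 420 and 592 CPM, below the 634 to 2573 CPM of the uneducated ones (-2.01, SE 0.417, adjusted p = 0.00424).

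Gzmg had the largest fitted change of the 9 genes in all 3 comparisons with uneducated cells, though no gene was tested against another. It ranged from 756 to 3492 CPM in WT uneducated libraries (median 1984), from 95.0 to 641 CPM in WT NKG2A+ libraries (median 413) and from 75.7 to 727 CPM in WT Ly49C/I+ libraries (median 269), with no overlap between uneducated libraries and the other groups. The log2 fold changes were -2.46 in NKG2A+ cells (SE 0.331, adjusted p = 3.11e-05) and -2.71 in Ly49C/I+ cells (SE 0.455, adjusted p = 0.00207). Those of uneducated cells of NKG2A KO mice ranged from 638 to 2433 CPM, and the Ly49C/I+ libraries held 6.92, 60.4, 107, 115 and 321 CPM, a difference of -3.37 (SE 0.624, adjusted p = 0.00218). The lowest of these was NKG2A KO Ly49C/I+ 4 with 128 reads on Gzmg, which was also lowest for Gzmd, Gzme and Gzmf. Without it the fitted change of Gzmg was -3.06, and that of Gzmd -2.40.

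Gzmk and Gzmm, which lie outside the cluster, were near the limit of detection. Gzmk, which cuts after basic residues as Gzma does, had group means from 2.43 CPM (WT Ly49C/I+, with 0 reads in 1 of 6 libraries) to 10.2 CPM (NKG2A KO uneducated). It was not called in NKG2A+ cells (log2 fold change -0.65, SE 0.385, adjusted p = 0.283) or in NKG2A KO Ly49C/I+ cells (-1.15, SE 0.450, adjusted p = 0.0897). The latter passed without NKG2A KO Ly49C/I+ 5 (-1.76, adjusted p = 0.0113). In NKG2A KO mice 7 of 8 uneducated libraries reached 5 CPM against 1 of 5 Ly49C/I+ libraries, which was the one left out (11.2 CPM). Gzmk was thus tested there mainly through uneducated libraries, where it was higher. Gzmm, which cuts after methionine, had a mean of 3.46 ± 2.08 CPM in WT uneducated libraries (SD, n = 9) and of 10.3 ± 3.61 CPM in WT NKG2A+ libraries (n = 9), with overlapping ranges (0.351 to 5.93 and 4.36 to 15.6 CPM). Its log2 fold change was 1.58 (SE 0.433, adjusted p = 0.0164), although it fell below the filter (5 CPM in at least 0.5 of the libraries) in 9 of the 18 fits that left out 1 library. It passed the filter mainly through NKG2A+ libraries, of which 8 of 9 reached 5 CPM against 2 of 9 uneducated ones, and without it 7 of 8 granzyme genes were called in that comparison. Where the filter left out a gene, an exact permutation test on log2(CPM + 1) was made, in 5 cases and without adjustment over all genes. In WT Ly49C/I+ against uneducated cells Gzmk differed by -1.59 (exact p = 0.0112) and Gzmm by 0.99 (exact p = 0.0190), in NKG2A+ against Ly49C/I+ cells Gzmk differed by 1.21 (exact p = 0.00779), and both differences between genotypes had an exact p above 0.1 (Gzmm in uneducated cells, 0.148, and Gzmk in Ly49C/I+ cells, 0.195). The fit of all groups tested all 9 genes. It called 7 of them lower in WT Ly49C/I+ than in WT uneducated cells, Gzmk among them.

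**Figure D2:**
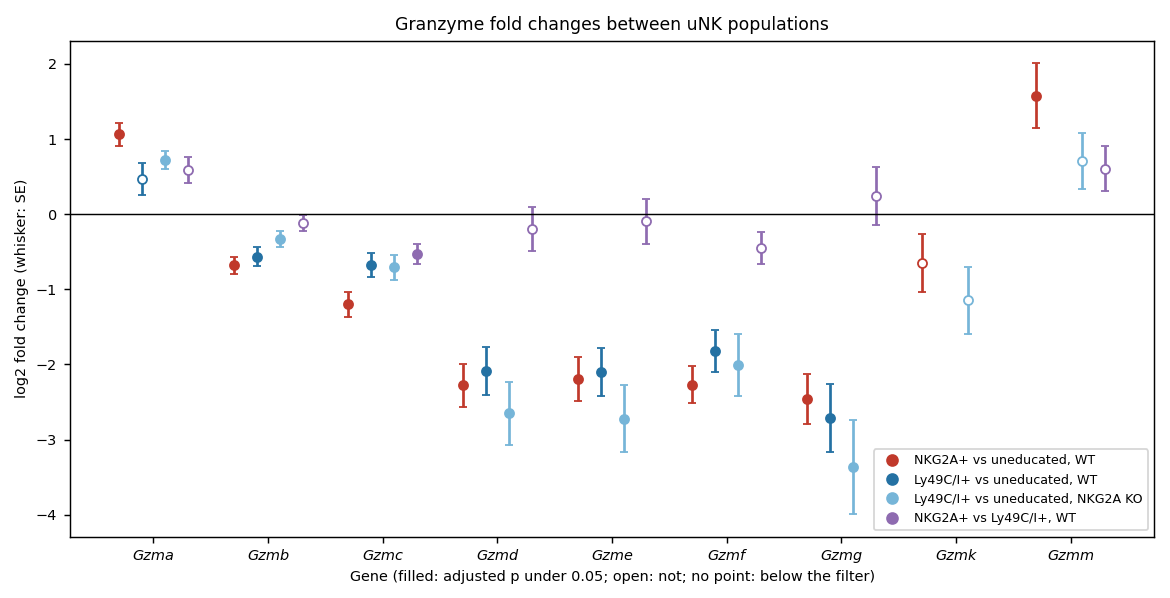
Fitted log2 fold change of each granzyme gene in 4 comparisons (whisker, SE; filled points have an adjusted p under 0.05 over all genes tested, and a gene below the filter has no point). Gzmd to Gzmg lie between -1.83 and -3.37 in the 3 comparisons with uneducated cells and between -0.45 and 0.25 between NKG2A+ and Ly49C/I+ cells, and Gzma lies above 0 in all 4.

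Along chromosome 14, the fitted changes were smaller at Gzmb and Gzmc than from Gzmf to Mcpt8, a difference between genes that was not tested. Beyond Gzme follow the genes of other granule proteases, of which 4 of 9 on a list, Gzmn inside the cluster included, reached 5 CPM in at least 0.5 of the libraries of some group. Ctsg, which encodes cathepsin G and starts 159.7 kb from Gzmb, had a mean of 102 ± 53.1 CPM in WT uneducated libraries (SD, n = 9), 17.0 ± 10.3 CPM in WT NKG2A+ libraries (n = 9) and 11.0 ± 10.0 CPM in WT Ly49C/I+ libraries (n = 6). It was lower by -2.57 (SE 0.376, adjusted p = 7.71e-05) and -3.21 (SE 0.575, adjusted p = 0.00320), without overlap, and by -4.53 in NKG2A KO Ly49C/I+ cells (SE 0.821, adjusted p = 0.00195). Mcpt8, a protease known from basophils that starts 177.0 kb from Gzmb, was lower by -1.89, -2.31 and -3.37 in the same comparisons (adjusted p = 0.000284, 0.00282 and 0.00217). In NKG2A KO mice both genes passed the filter through uneducated libraries, since 5 CPM was reached in 1 of 5 Ly49C/I+ libraries for Ctsg and in 0 of 5 for Mcpt8, so that only genes lower in Ly49C/I+ cells could pass in this way. Gzmn, inside the cluster, had a mean of 9.21 CPM in WT uneducated libraries and at most 1.18 CPM in groups with a receptor, and it was below the filter in the comparisons of these groups with uneducated cells. Between NKG2A KO and WT uneducated cells it was tested and not called (-0.62, SE 0.451, adjusted p = 0.843). Cma1, a mast cell chymase gene 317.6 kb from Gzmb, went the other way: it was higher by 1.05 in NKG2A+ cells (SE 0.225, adjusted p = 0.00286) and by 0.61 in NKG2A KO Ly49C/I+ cells (SE 0.172, adjusted p = 0.0242), and changed by 0.61 in WT Ly49C/I+ cells (SE 0.257, adjusted p = 0.147).

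**Figure D3:**
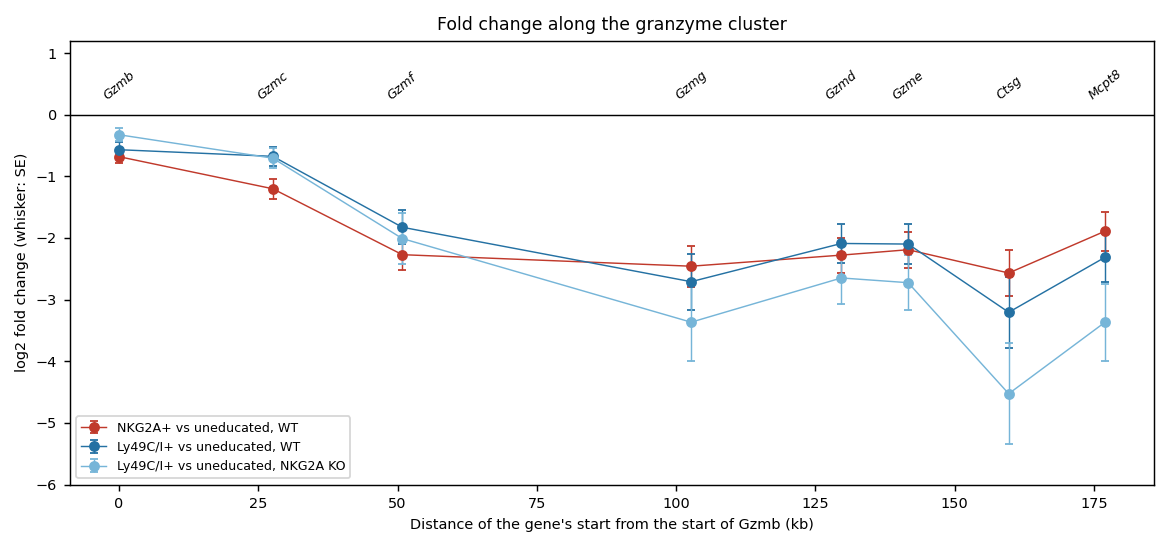
Fitted log2 fold change (whisker, SE) of granzyme and neighbouring protease genes against the distance of each gene's start from that of Gzmb, in kb, for the 3 comparisons with uneducated cells (Gzmn, below the filter, and Cma1 are not drawn). Values run from -0.33 to -0.68 at Gzmb, from -0.68 to -1.20 at Gzmc and from -1.83 to -4.53 at the genes beyond.

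Between genotypes, no granzyme gene was called. In uneducated cells 0 of 9288 genes passed edgeR's quasi-likelihood test (0%), with 619 at an unadjusted p under 0.05 and 1 gene called by the likelihood ratio test and by DESeq2 each. In Ly49C/I+ cells 0 of 9344 genes passed (0%), with 992 at an unadjusted p under 0.05, and 60 and 84 genes called by those other tests. A test of whether Ly49C/I+ cells departed from uneducated ones to a different extent in each genotype gave 0 of 9322 genes (0%), with 407 at an unadjusted p under 0.05 and 1 gene by each other test. The fitted values for the cluster were below 0 in NKG2A KO against WT uneducated cells, at -0.50 for Gzmd (SE 0.281, adjusted p = 0.810) and -0.73 for Gzmg (SE 0.331, adjusted p = 0.735). In Ly49C/I+ cells they were -1.04 for Gzmd (SE 0.407, adjusted p = 0.412) and -1.37 for Gzmg (SE 0.675, adjusted p = 0.497). Gzma was at 0.36 in uneducated cells (SE 0.161, adjusted p = 0.735) and at 0.61 in Ly49C/I+ cells (SE 0.204, adjusted p = 0.338), where it passed without WT Ly49C/I+ 1 (0.87, adjusted p = 0.00624). The effect of Ly49C/I+ differed between the genotypes by -0.64 for Gzmg (SE 0.728) and by 0.26 for Gzma (SE 0.277), with an adjusted p of 0.999 each. A value that misses the threshold does not show that the genotypes were alike.

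In the order of group means, Gzmd, Gzme, Gzmf and Gzmg each stood highest in WT uneducated cells and then in NKG2A KO uneducated cells. Of the 36 pairs of neighbours in the orders of the 9 genes, 4 passed the test in the fit of all groups, and these were the steps from NKG2A KO uneducated cells to the next group in Gzmd (log2 difference 1.59, adjusted p = 0.00973), Gzme (1.69, adjusted p = 0.00861), Gzmf (1.38, adjusted p = 0.0131) and Gzmg (1.74, adjusted p = 0.0136). The next group was WT Ly49C/I+ for the first 3 genes and WT NKG2A+ for Gzmg. Neighbours among the 3 groups with a receptor did not pass the threshold for any of these 4 genes (adjusted p from 0.236 to 0.928). The widest of these steps was Gzmg in WT over NKG2A KO Ly49C/I+ cells (1.37, SE 0.559, adjusted p = 0.332).

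The ratio of the summed reads of Gzmc to Gzmg to the reads of Gzma needs no scaling between libraries, and is given as a description. It ranged from 5.56 to 22.3 in WT uneducated libraries (median 12.5) and from 0.767 to 3.03 in WT NKG2A+ libraries (median 1.69), so that every uneducated library stood above every NKG2A+ library. WT Ly49C/I+ libraries lay from 2.72 to 6.25 (median 3.77) and overlapped both. In NKG2A KO mice, uneducated libraries ranged from 4.16 to 14.3 (median 6.27) and Ly49C/I+ libraries from 1.45 to 2.37 (median 1.98), again without overlap. Within the cluster the balance also moved between groups. The ratio of Gzmd to Gzmb had medians of 0.348 in WT uneducated, 0.120 in WT NKG2A+ and 0.112 in WT Ly49C/I+ libraries, and of 0.230 and 0.0666 in uneducated and Ly49C/I+ libraries of NKG2A KO mice. Gzmd to Gzmc had medians of 0.346, 0.174, 0.117, 0.232 and 0.0735 in the same order. The ratio of Gzme to Gzmd had medians between 0.569 and 0.605 in the 5 groups. Gzmf to Gzmd had medians of 0.586, 0.597 and 0.604 in WT uneducated, WT NKG2A+ and NKG2A KO uneducated libraries, but of 0.743 in WT Ly49C/I+ and 0.902 in NKG2A KO Ly49C/I+ libraries. Gzmg to Gzmd had medians of 0.418 and 0.242 in these last 2 groups and from 0.529 to 0.587 in the others, a difference that was not tested and that concerns genes among which reads can be split.

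**Figure D4:**
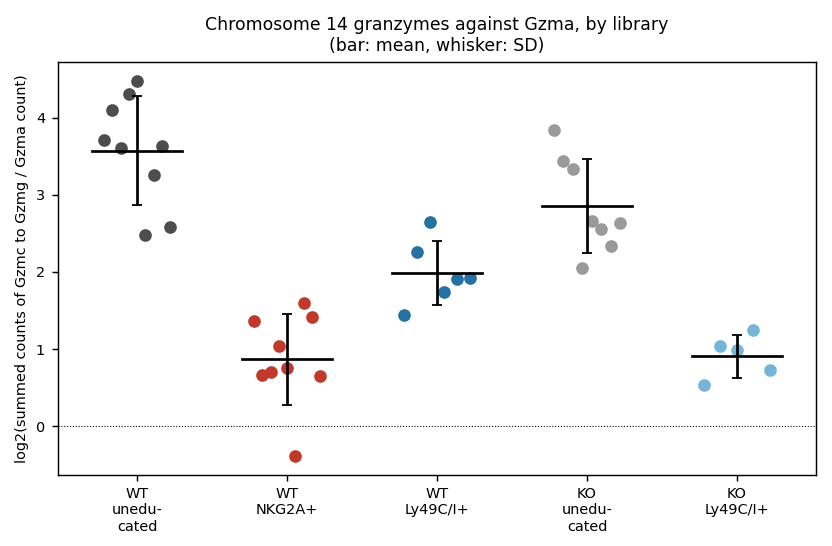
Log2 ratio of the summed counts of Gzmc, Gzmd, Gzme, Gzmf and Gzmg to the count of Gzma, one point per library, by group (black line, mean; whisker, SD; KO, NKG2A KO). WT uneducated libraries have a mean of 3.57 and WT NKG2A+ libraries of 0.87 on this scale, and one NKG2A+ library lies below 0, where Gzma outnumbers the 5 cluster genes together.

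Libraries of one group also differed from each other in granzyme levels, and 20 relations between pairs of genes were tested within the 4 groups of at least 6 libraries, by two-sided exact permutation tests with Benjamini-Hochberg adjustment over the 20. Gzmf and Gzmb share no stretch of 50 bases, and rose and fell together among uneducated libraries. In WT uneducated libraries Pearson's r was 0.94 (exact p = 3.03e-05, adjusted p = 0.000303, n = 9) and Spearman's rho 0.97 (exact p = 0.000165, adjusted p = 0.00165), and r was 0.92 without the 2 libraries farthest from the median of Gzmf. In NKG2A KO uneducated libraries r was 0.96 (exact p = 2.48e-05, adjusted p = 0.000303, n = 8), rho was 1 (exact p = 4.96e-05, adjusted p = 0.000992) and r without 2 libraries was 0.96. In WT Ly49C/I+ libraries r was 0.85 (exact p = 0.0486, adjusted p = 0.0810, n = 6) and rho 0.94 (exact p = 0.0167, adjusted p = 0.0417), and r was 0.94 over the 4 libraries left. In WT NKG2A+ libraries r was 0.35 (exact p = 0.336, adjusted p = 0.488, n = 9) and rho 0.32 (exact p = 0.410, adjusted p = 0.631), with r at -0.32 without 2 libraries. Whether these groups differ in the relation was not tested.

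Gzma did not follow Gzmb in any of the 4 groups, with r between -0.25 and 0.14 (lowest exact p = 0.508, adjusted p = 0.678) and rho between -0.22 and 0.10. For Gzmf and Gzma, r was -0.86 in WT NKG2A+ libraries (exact p = 0.00590, adjusted p = 0.0148, n = 9). This rests on few libraries: rho was -0.57 (exact p = 0.121, adjusted p = 0.219) and r without the 2 libraries farthest from the median of Gzmf was -0.61 (exact p = 0.146, adjusted p = 0.292). Among them is WT NKG2A+ 6, which had both the lowest Gzmf (138 CPM) and the highest Gzma (4321 CPM). In WT uneducated, WT Ly49C/I+ and NKG2A KO uneducated libraries the r of Gzmf and Gzma was -0.06, 0.48 and -0.11 (exact p from 0.342 to 0.872, adjusted p from 0.488 to 0.969), and rho -0.03, 0.26 and -0.05. Within the cluster, Gzmd and Gzmf had an r of 0.98 in WT uneducated and 0.99 in NKG2A KO uneducated libraries (exact p = 6.06e-05 and 7.44e-05, adjusted p = 0.000372 each) and rho of 0.93 and 0.98, and Gzmc and Gzmf an r of 0.94 and 0.96 (adjusted p = 0.00130 and 0.00157) and rho of 0.83 and 0.95, by exact permutation. Without the 2 farthest libraries the first pair had an r of 0.94 and 0.96 and the second of 0.76 and 0.97, of which the 0.76 no longer passed (adjusted p = 0.121). In WT NKG2A+ libraries r was 0.96 for Gzmd and Gzmf (exact p = 0.00119, adjusted p = 0.00340) and 0.73 for Gzmc and Gzmf (exact p = 0.0131, adjusted p = 0.0292), and neither passed without 2 libraries (0.78 and 0.65, adjusted p = 0.121 and 0.277). In WT Ly49C/I+ libraries neither passed with 6 libraries (0.84 and 0.81, exact p = 0.0389 and 0.0431, adjusted p = 0.0778 and 0.0783).

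**Figure D5:**
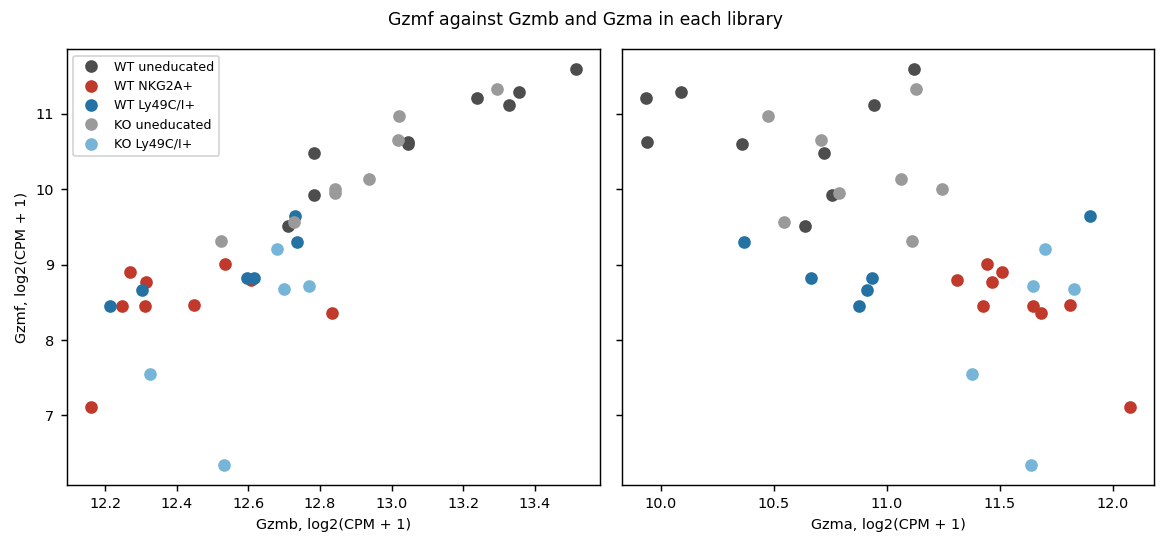
Level of Gzmf against that of Gzmb (left) and of Gzma (right) as log2(CPM + 1), one point per library, coloured by group (KO, NKG2A KO). Uneducated libraries of both genotypes line up along a rising band on the left, with r at 0.94 in WT and 0.96 in NKG2A KO mice, and show no such band on the right.

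After the group means had been taken off, Gzmb had an r of 0.73 to the sum of Gzmc to Gzmg over the 37 libraries, and Gzma one of 0.001. Among the 9278 other genes compared, those most like that sum included Adam8 (0.88), Basp1 (0.85), Pnp2 (0.84) and Pdia6 (0.84), and those most like Gzma were Serpinb9b (0.78), D1Ertd622e (0.77), Itgb7 (0.73), Cma1 (0.71) and S1pr5 (0.69). Without WT Ly49C/I+ 1, the library with the high Gzma, the values to Gzma were 0.69 for Serpinb9b, 0.73 for D1Ertd622e, 0.71 for Itgb7, 0.64 for Cma1 and 0.61 for S1pr5, and 4 of the first 5 genes stayed among the first 5. These are descriptions over libraries that share their sort and scaling.

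The partners of granzymes in the granule did not move as one group. Of 20 genes on a list, 19 were tested in each comparison, and in NKG2A+ WT cells 5 were higher and 5 lower, against 7.47% higher and 7.56% lower among all genes tested. The median log2 fold change was 0.06 against 0.01 over all genes tested. Prf1, which encodes perforin, was lower by -0.69 (SE 0.115, adjusted p = 0.000294), with 1491 to 2440 CPM in NKG2A+ libraries and 2519 to 4489 CPM in uneducated ones. Ctsc, whose product cathepsin C activates granzymes, was lower by -0.34 (adjusted p = 0.00297), and Cst3, which encodes the protease inhibitor cystatin C, by -0.99 (adjusted p = 1.27e-06). Higher were Serpinb9, whose product inhibits granzyme B, by 0.56 (adjusted p = 4.61e-06), and Serpinb6b, of the same inhibitor family, by 0.89 (adjusted p = 2.58e-06). Srgn, the gene of the granule proteoglycan serglycin, was at 0.06 (adjusted p = 0.599).

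In Ly49C/I+ WT cells 1 gene of that list was higher and 3 were lower, against 4.50% and 4.70% of all genes tested (median -0.05, against 0.01 over all genes). These were Serpinb9 (0.33, adjusted p = 0.0174), Prf1 (-0.70, adjusted p = 0.00629), Ctsc (-0.52, adjusted p = 0.00604) and Cst3 (-0.90, adjusted p = 0.000553), while Srgn was at -0.14 (adjusted p = 0.227). In NKG2A KO mice 6 were higher and 3 lower in Ly49C/I+ cells, against 7.34% and 8.99% of all genes tested (median 0.17, against 0.02). Prf1 (-0.46, adjusted p = 0.0302) and Cst3 (-1.06, adjusted p = 0.00212) were again lower, Serpinb9 (0.32, adjusted p = 0.0358), Serpinb9b (0.79, adjusted p = 0.00511) and Srgn (0.27, adjusted p = 0.0380) were higher, and Ctsc was at -0.16 (adjusted p = 0.400). Between NKG2A+ and Ly49C/I+ WT cells, Serpinb6b was higher in NKG2A+ cells (0.67, adjusted p = 0.00127) and Cst7, which encodes cystatin F, was lower (-0.50, adjusted p = 0.00444). Between genotypes, edgeR's quasi-likelihood test called 0 genes of the list. In Ly49C/I+ cells the likelihood ratio test and 1 fit of all groups called 1 of them higher in NKG2A KO mice, as did the quasi-likelihood test without WT Ly49C/I+ 1, and DESeq2 called 2.

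Some markers of other cells also stood higher in uneducated than in receptor-bearing libraries, and some stood lower. The sum of 5 mast cell and basophil markers was 18.3 to 83.9 CPM in WT uneducated libraries, 6.45 to 21.0 CPM in WT NKG2A+ and 4.35 to 15.9 CPM in WT Ly49C/I+ libraries, 14.1 to 49.4 CPM in NKG2A KO uneducated and 0.595 to 11.3 CPM in NKG2A KO Ly49C/I+ libraries. Its highest gene was Mcpt8 in 4 of the 5 groups, itself a neighbour of the cluster, and Tpsb2, Tpsab1 and Ms4a2 were at 0 in every WT NKG2A+ and Ly49C/I+ library. Cpa3, also on the list, was lower in NKG2A+ (-1.55, adjusted p = 0.00237) and in Ly49C/I+ WT cells (-2.76, adjusted p = 0.00938) than in uneducated ones. The mast cell gene Cma1 was not on the list and went the other way. Its mean was 55.3 CPM in WT uneducated, 114 CPM in WT NKG2A+ and 84.3 CPM in WT Ly49C/I+ libraries. For NKG2A KO mice the mean of Cma1 was 81.7 CPM in uneducated and 126 CPM in Ly49C/I+ libraries. The sum of 3 endothelial markers, nearly all Pecam1, was 219 to 343 CPM in WT uneducated, 122 to 201 CPM in WT NKG2A+ and 142 to 218 CPM in WT Ly49C/I+ libraries, and 4 trophoblast and epithelial markers, mainly Epcam, summed to 46.5 to 127, 19.7 to 77.5 and 26.7 to 44.7 CPM. In NKG2A KO mice these sums were 175 to 337 and 35.1 to 75.0 CPM in uneducated libraries and 130 to 198 and 10.2 to 33.7 CPM in Ly49C/I+ libraries. In each of these latter lists 1 gene reached 5 CPM in at least 0.5 of the libraries. Sums of 3 B cell markers were at most 3.12 CPM in any library, and those of 5 decidual stroma markers at most 90.5 CPM outside 1 WT NKG2A+ library, which held 895 CPM. Sums of 5 T cell markers, led by Cd3g, ranged from 41.8 to 213 CPM, those of 5 macrophage markers from 0.116 to 334 CPM and those of 4 neutrophil markers from 0 to 61.3 CPM, with overlapping ranges between uneducated and receptor-bearing groups. Within the T cell list, Cd3d (1.19, adjusted p = 0.00156) and Cd3e (1.84, adjusted p = 0.00177) were higher in NKG2A+ than in uneducated WT cells. Cd3g was not called there (-0.13, adjusted p = 0.773). The part of such cells in the granzyme differences was not tested, and in bulk RNA fewer cells that express a gene and less of its RNA per cell cannot be told apart.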

How the data were processed

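RNA of sorted uNK cells was prepared with RNeasy Micro, SMART-Seq v4 and Nextera XT kits and sequenced in 37 libraries. Per the labels and the methods of the study, the authors used FastQC 0.11.4, Trim Galore 0.5.0, STAR 2.7.1 on GRCm38 and edgeR 3.26.5 in R 3.6.1. The authors deposited raw read counts per Ensembl gene, and no source used here names the counting program or its strand setting. Summary lines that name no gene stayed out of library sizes: 2.69% to 6.83% of reads matched no gene, 4.04% to 4.60% more than 1 gene, and 11.3% to 13.8% were not uniquely aligned. Symbols came from GENCODE M21 (52147 of 53700 genes).

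Depth was 13287163 to 18875033 reads on genes, so that counting error is small beside the spread between libraries except for Gzmk and Gzmm. No libraries of one group agreed within sampling noise. Groups came from the labels. Each comparison was fitted with edgeR 4.0.16 (R 4.3.3, quasi-likelihood test, TMM) on the libraries compared, keeping genes that reached 5 CPM in 0.5 or more of them, with Benjamini-Hochberg adjustment over all genes tested and a threshold of 0.05. Genes below the filter were tested by two-sided exact permutation on log2(CPM + 1). Scripts were tested on simulated data first. Promoters came from RefSeq (GRCm38.p6), and identities from pairwise alignment in Biopython 1.88 (Python 3.11.15).

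All 9 granzyme genes are named. Of a list of granule partners, Prf1, Srgn, Ctsc, Serpinb9 and the largest changes past the threshold are named, and of the other genes the 5 most like Gzma or the cluster, of which 1 is not reported here. The genes and lists were chosen with earlier results of these data known. Alternatives were the likelihood ratio test, DESeq2 1.42.0, RLE factors, a filter at 1 CPM or none, offsets for GC content and length (spline with 5 degrees of freedom), 1 fit of all groups, a block for the replicate number, and leaving out each library.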

Additional observations from a re-analysis of the deposited data

Results flagged for a closer look

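Of 50 sets of values, one for each granzyme gene or the cluster ratio in each group of libraries, 2 held a library far from the rest of its group by Dixon's criterion, which chance meets in about 1 of 20 sets. Gzma was at 3820.1 CPM in WT Ly49C/I+ 1, with the next library at 1954 CPM. Gzmf was at 138 CPM in WT NKG2A+ 6, with the next at 329 CPM.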

How the results depend on the processing

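The numbers of called genes in NKG2A+ against uneducated WT cells stayed within 1.5 times under the settings tried, with 8 granzyme genes called in each, and from 1118 to 1687 genes (7 to 8 granzyme genes) without 1 library. Over 1502 refits of 58 granzyme fold changes, 1439 kept direction and side of the threshold, 32 lost a call, 5 gained one and 26 changed sign, of which 0 belonged to a called change. In Ly49C/I+ against uneducated WT cells, 855 genes became 451 with no filter and 1538 with all groups in 1 fit (7 granzyme genes, Gzmk included). Without 1 library they were 466 to 1227, with 6 granzyme genes each time, and 539, 564 and 466 without WT uneducated 3, WT Ly49C/I+ 5 and WT Ly49C/I+ 7. Between NKG2A+ and Ly49C/I+ cells, 254 genes became 442 by likelihood ratio test (2 granzyme genes, Gzma and Gzmc), 558 by DESeq2 and 104 with no filter. There 0 granzyme genes were called with a filter at 1 CPM, with no filter, with GC and length offsets and with all groups in 1 fit. Without 1 library there were 147 to 306 genes and 0 to 1 granzyme genes, with 168 and 163 genes without WT NKG2A+ 2 and 8, and 154, 155 and 147 without WT Ly49C/I+ 2, 5 and 7. In that comparison Gzmd became 0.092 without WT Ly49C/I+ 1, and Gzme ran from -0.24 to 0.16. In NKG2A KO mice, 1519 genes became 889 with no filter and 967 to 1763 without 1 library (6 to 8 granzyme genes), the lowest without KO Ly49C/I+ 4. Between genotypes, the likelihood ratio test and DESeq2 called 1 gene each in uneducated cells and 60 and 84 in Ly49C/I+ cells, where all groups in 1 fit gave 21. Without 1 library these were 0 in uneducated cells and 0 to 15 in Ly49C/I+ cells (0 to 1 granzyme genes), with 15 without WT Ly49C/I+ 1 and 2 without KO Ly49C/I+ 8. For the interaction of genotype and Ly49C/I+, both tests called 1 gene and leaving out 1 library called 0. Gzmc became 0.062 there with GC and length offsets, and ran from -0.10 to 0.074 without 1 library, as Gzmf did from -0.48 to 0.084. Of the correlations, 9 passed with all libraries and 5 without the 2 farthest, and r changed sign for Gzmf and Gzma (-0.32) and Gzma and Gzmb (-0.38) in WT Ly49C/I+ libraries and for Gzmf and Gzmb (-0.32) and Gzma and Gzmb (0.20) in WT NKG2A+ libraries. Where no construction shows it, the cause was not tested. Depth limits Gzmk and Gzmm, which rest on few reads.

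Replicate numbers follow the description lines, which number some WT Ly49C/I+ libraries otherwise than their titles, except for WT uneducated 5, numbered by its title. The labels do not say that libraries with one number share an animal or day, and same-numbered libraries did not all deviate together (correlations over 0.1 in 4 of 9 pairs for NKG2A+ and 4 of 6 for Ly49C/I+ WT cells against uneducated ones, 2 of 6 between these 2 groups and 1 of 5 in NKG2A KO mice). As a hint from the data and not the design, a library correlated best with its own number in 6 of 9, 5 of 6, 6 of 6 and 3 of 5 pairs. With the replicate block, 1418 genes (8 granzyme genes) were called in NKG2A+ and 990 (7) in Ly49C/I+ against uneducated WT cells, where Gzma passed (0.61, adjusted p = 0.00989), 279 (1) between NKG2A+ and Ly49C/I+ cells and 748 (6) in NKG2A KO mice, where Gzmb lost its call (-0.19, adjusted p = 0.0586). It called 0 genes between genotypes and for their interaction. The same libraries without the block, a setting chosen after seeing the data, gave 848 genes in Ly49C/I+ WT cells (Gzma 0.64, adjusted p = 0.106), 0 granzyme genes between NKG2A+ and Ly49C/I+ cells, and 508 genes (5 granzyme genes) in NKG2A KO mice. With the replicate block and then with the same libraries without it, NKG2A+ against Ly49C/I+ cells had Gzmd at 0.11 and 0.028 and Gzme at 0.17 and 0.13, and the interaction had Gzmc at 0.37 and 0.38 and Gzmf at 0.25 and 0.49. Without the block, the interaction was 0.14 for Gzmd, 0.034 for Gzme and 0.16 for Gzmg in those libraries.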
